A study of Mus musculus with 12 samples.

Results

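Amino acid transporters of 6 solute carrier families (Slc1, Slc3, Slc7, Slc36, Slc38 and Slc43) were followed in the RNA of mouse pluripotent cells. Members were all loci whose gene symbol names one of these families, which gave 42 of the 23136 named loci. Of these, 24 reached at least 1 FPKM (sequenced fragments scaled by transcript length and library size) in at least 3 of the 12 libraries and entered the tests. The other 18 stayed under 1 FPKM in all 12 libraries and are reported as not expressed. The 12 polyadenylated RNA libraries came from C57 Bl/6J cells, with 3 in each of 4 groups. In the first group, embryonic stem cells (ESC) of wild-type genotype were kept on gelatin. Their medium was N2B27 without serum, with added L-glutamine and non-essential amino acids. The naive, pre-implantation-like state was held with LIF, 1 uM of the MEK inhibitor PD0325901 and 3 uM of the GSK3 inhibitor CHIR99021. Epiblast-like cells (EpiLC), a state closer to the post-implantation epiblast, were wild-type ESC moved to fibronectin for 48 h with 12 ng/ml Fgf2, 20 ng/ml Activin A and 1% KOSR, a serum replacement. Cell state and culture medium therefore differed together between EpiLC and ESC and cannot be told apart. The other groups were ESC in which Sirt1 was knocked out (Sirt1KO), and the same knockout with a knockdown of Otx2 added (Sirt1KO Otx2KD). Like the wild-type ESC, both were kept with 1 uM PD0325901 and 3 uM CHIR99021. The labels do not say which part of Sirt1 was deleted, how Otx2 was knocked down, how many clones were used or whether a control knockdown was made. They do not say whether replicates were separate cultures, so the p-values measure the spread between these libraries, which may be technical.

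Cells take up amino acids through carriers with overlapping substrates. Several Slc7 proteins are light chains that reach the plasma membrane only when paired with the heavy chain Slc3a2 (CD98), while Slc38 carriers bring in glutamine and other small neutral amino acids together with sodium. Slc1 carriers move glutamate or exchange neutral amino acids, and Slc36a1, Slc38a7 and Slc38a9 act at the lysosome, where the kinase complex mTORC1 is switched on by amino acids. Many of these genes are known targets of Atf4, the transcription factor of the amino acid starvation response.

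The labels and the state of the cells were checked first. Sirt1, the deleted deacetylase, measured 25.8, 25.4 and 26.2 FPKM in wild-type ESC, against 32.0, 34.5 and 33.1 in EpiLC. It was still read at 15.3, 15.3 and 15.7 FPKM in Sirt1KO and 16.0, 15.6 and 15.0 in the Sirt1KO Otx2KD cells, lower than in wild-type cells without overlap. Otx2, a transcription factor of the primed state, had a mean of 7.38 FPKM in wild-type ESC, against 100.2 in EpiLC. In Sirt1KO it measured 34.2, 24.6 and 22.2 FPKM, with replicate 1 above the others, and in Sirt1KO Otx2KD its mean was 6.07. The summed level of 7 primed markers was 35.2 to 39.1 FPKM in wild-type ESC, then 967 to 1004 in EpiLC, 221 to 324 in Sirt1KO and 50.3 to 53.7 in the Sirt1KO Otx2KD cells. The sum of 8 naive markers was 994 to 1006, 253 to 264, 756 to 874 and 982 to 1003 FPKM in the same order. Against wild-type ESC, 2 of these 8 were called higher and 6 lower in Sirt1KO, beside 32.4% and 32.7% of all tested loci. Klf4 went from a mean of 54.4 to 108 FPKM and Tfcp2l1 from 84.05 to 150, while Dppa3 fell from 232 to 74.5. The 4 general pluripotency markers summed to at least 897 FPKM in all 12 libraries, with the highest sums in EpiLC, at 1330 to 1400 FPKM. They were not steady one by one: in EpiLC the mean of Lin28a went from 20.6 to 195 FPKM and that of Utf1 from 36.8 to 412, while Sox2 fell from 263 to 155. Markers of fibroblasts and feeder cells also moved: 8 genes summed to 307 to 351 FPKM in wild-type ESC, then 185 to 189 in EpiLC, 168 to 180 in Sirt1KO and 435 to 439 in the Sirt1KO Otx2KD cells, and none was at 0 throughout a group. Fn1 made up much of the sum, with a mean of 220 FPKM in wild-type ESC, and other genes changed by more. Col1a1 went from 38.2 FPKM in wild-type ESC to 1.81 in Sirt1KO and 50.5 in Sirt1KO Otx2KD, and Col3a1 from 36.3 to 2.10 and 75.2. Against wild-type ESC, 0 of the 8 were called higher and 8 lower in Sirt1KO, beside 32.4% and 32.7% of all tested loci. Neural markers (6 genes) summed to 247 to 266, 64.7 to 69.3, 126 to 137 and 174 to 185 FPKM in the same order. Trophoblast markers (6 genes) were highest in Sirt1KO, at 17.6 to 20.5 FPKM, against at most 6.83 elsewhere, and primitive endoderm markers (6 genes) reached at most 5.55. The trophoblast sum in Sirt1KO was mostly that of the keratin genes Krt8 and Krt7, with means of 8.77 and 6.78 FPKM. Only 3 of the 6 trophoblast markers passed the filter of the tests. The part these other cell types or states had in the transporter levels was not tested, and in bulk RNA fewer cells of a type and less RNA per cell cannot be told apart.

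The windows around the start sites of the transporter genes are shown for those that hold the core letters of an amino acid response element, the sequence that Atf4 binds. RefSeq windows (GRCm38.p6, 250 bases before to 50 bases after the start) were matched by symbol for 31 of the 42 members, with 42 windows among them. The letters searched were TGATGNAA on either strand. They stood in 4 of the 42 windows (9.52%), which belong to Slc7a11, Slc7a7 and Slc1a4, and in 3.97% of all 32851 windows of the table. Capitals mark the match, and each sequence is written along its gene, which lies on the minus strand in all 3 cases.
Slc7a11 (chr3:50443564-50443863): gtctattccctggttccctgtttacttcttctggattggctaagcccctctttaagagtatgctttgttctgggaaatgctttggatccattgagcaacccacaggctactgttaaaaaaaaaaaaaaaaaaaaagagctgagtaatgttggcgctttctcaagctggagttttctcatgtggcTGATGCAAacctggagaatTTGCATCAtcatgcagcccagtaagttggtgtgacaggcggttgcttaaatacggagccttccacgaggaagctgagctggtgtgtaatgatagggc
Slc7a7 (chr14:54417895-54418194): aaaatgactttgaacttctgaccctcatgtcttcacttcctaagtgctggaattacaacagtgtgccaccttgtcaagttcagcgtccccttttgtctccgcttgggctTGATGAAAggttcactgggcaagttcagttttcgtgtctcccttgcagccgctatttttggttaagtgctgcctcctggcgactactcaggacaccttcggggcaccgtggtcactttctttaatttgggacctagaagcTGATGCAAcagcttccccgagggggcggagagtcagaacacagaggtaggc
Slc1a4 (chr11:20332664-20332963): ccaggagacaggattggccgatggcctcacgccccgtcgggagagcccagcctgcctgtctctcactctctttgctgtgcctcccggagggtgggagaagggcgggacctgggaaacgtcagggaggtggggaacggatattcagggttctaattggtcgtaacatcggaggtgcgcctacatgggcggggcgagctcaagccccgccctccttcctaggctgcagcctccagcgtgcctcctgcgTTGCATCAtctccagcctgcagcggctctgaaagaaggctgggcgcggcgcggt
Slc7a11, the light chain of the cystine-glutamate exchanger, holds a pair of matches on opposite strands, whose first bases lie at -66 and -47 from the start. In Slc7a7 the matches begin at -141 and -1, and a second annotated start of the same gene shares the latter. Slc1a4 holds a match in reverse orientation at -4. The letters TAATCC, a core that Otx2 is known to bind, were also searched on both strands after the values had been seen. They stood in 0 of the 42 member windows and in 7.06% of all windows, which says only that these letters are not in these short windows. The levels of the 3 genes with matches went different ways, as given with their values below. Binding of Atf4 or Otx2 was not measured here.

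Few genes carried most of the transporter RNA. Slc38a2, a sodium-coupled neutral amino acid carrier, had the highest level in each of the 4 groups, at 138, 137 and 133 FPKM in wild-type ESC. FPKM is a level per transcript length, so levels can be set beside each other across genes. Slc3a2 came next in every group, at 82.2, 84.6 and 86.6 FPKM in wild-type ESC, and did not overlap Slc38a2. In Sirt1KO its libraries overlapped those of Slc1a5, the next in order. Slc7a3, Slc38a4, Slc1a5 and Slc7a5 made up the rest of the 6 highest. In wild-type ESC, Slc38a4 overlapped its neighbours Slc7a3 and Slc1a5, and Slc7a5 overlapped Slc38a10, the next gene below these 6. Slc7a5 also overlapped Slc7a3 in EpiLC and Slc1a5 in Sirt1KO Otx2KD. These 6 genes held 71.1% ± 0.033 of the summed level of all 42 members in wild-type ESC, then 78.3% ± 0.15 in EpiLC, 76.8% ± 0.45 in Sirt1KO and 72.3% ± 0.37 in the Sirt1KO Otx2KD cells (SD, n = 3). The summed level itself was 673, 683 and 675 FPKM in wild-type ESC, against 1017, 1020.2 and 997 in EpiLC. It was 812, 776 and 769.9 FPKM in Sirt1KO, and 636, 631 and 628 in the Sirt1KO Otx2KD cells. The EpiLC libraries were thus the highest and the Sirt1KO Otx2KD libraries the lowest, with no overlap between any of the 4 groups.

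**Figure D1:**
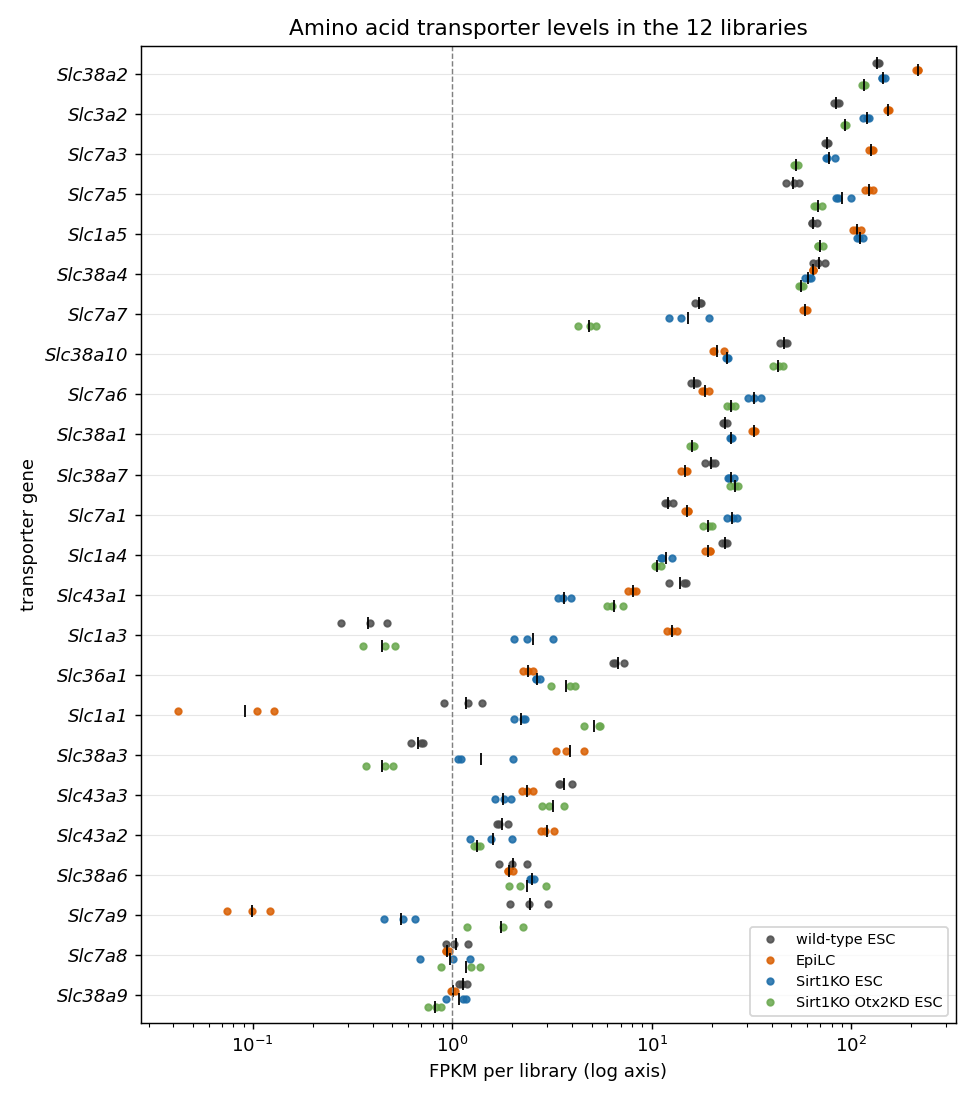
Levels of the 24 tested transporters in FPKM (log axis), 1 point per library, coloured by group, with a black tick at each group mean. The dashed line marks 1 FPKM. Slc38a2 and Slc3a2 lie at the top, and Slc1a1, Slc1a3, Slc38a3 and Slc7a9 spread most widely between groups at low levels.

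By family, the Slc7 sum was 177 ± 6.55 FPKM in wild-type ESC, then 345 ± 9.76 in EpiLC, 244 ± 13.1 in Sirt1KO and 174 ± 2.70 in the Sirt1KO Otx2KD cells. The Slc1 sum was 90.1 ± 2.73, 139.7 ± 5.26, 127 ± 5.28 and 86.7 ± 2.83 FPKM in the same order. The Slc38 sum spanned a narrower range, from 262 ± 4.02 FPKM in Sirt1KO Otx2KD to 356 ± 4.75 in EpiLC. The Slc36 and Slc43 sums were highest in wild-type ESC. The Slc43 sum was 19.3 ± 1.66 FPKM in wild-type ESC, against 13.4 ± 0.49, 7.04 ± 0.67 and 11.02 ± 0.53 in EpiLC, Sirt1KO and Sirt1KO Otx2KD. The Slc36 sum was 7.59 ± 0.76 FPKM in wild-type ESC, against 2.99 ± 0.11, 3.21 ± 0.40 and 4.42 ± 0.50 in the other groups (all SD, n = 3). Loci of chromosomes 8 and 11 shifted as a whole against wild-type ESC, as given below. These shifts enter the sum of all members and the sums of families with genes there, and were not removed. Slc36a1 lies on chromosome 11, and Slc7a5 and Slc7a6 lie on chromosome 8.

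The 18 loci that were not expressed include the glial glutamate carrier Slc1a2, the heavy chain Slc3a1, and the carriers Slc1a6, Slc1a7, Slc36a2, Slc36a3, Slc36a4, Slc38a5, Slc38a8 and Slc38a11. The Slc7 genes among them were Slc7a2, Slc7a4, Slc7a10, Slc7a11, Slc7a12, Slc7a13, Slc7a14 and Slc7a15. Slc7a13 was listed at 0 in all 12 libraries. Slc7a4 came nearest to the limit with a highest library of 0.979 FPKM, followed by Slc36a4 at 0.867 and Slc1a6 at 0.827. Just inside were Slc38a9, with a highest library of 1.18 FPKM, and Slc7a8 at 1.38. With the limit set at 2 FPKM, 20 members would count as not expressed, and at 0.5 FPKM, 14. Slc7a11 was below the limit throughout, but its libraries fell into levels. It measured 0.186, 0.222 and 0.216 FPKM in wild-type ESC and, in Sirt1KO Otx2KD, 0.217, 0.171 and 0.224. The EpiLC libraries were at 0.652, 0.682 and 0.604 FPKM, and the Sirt1KO libraries at 0.575, 0.467 and 0.463. EpiLC and Sirt1KO did not overlap wild-type ESC, a description that carries no test.

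Each comparison was fitted on log2(FPKM + 1) over 12320 named loci with limma, with Benjamini-Hochberg adjustment over all of them and a limit of 0.05. By their labels, EpiLC and wild-type ESC differ in state and medium, Sirt1KO and wild-type ESC in Sirt1, and Sirt1KO Otx2KD and Sirt1KO in Otx2. Wild-type ESC also stood apart from the 3 other groups over all of chromosomes 8 and 11, which cannot be told apart from these differences for loci on those chromosomes. DNA copy number was not analysed here. In EpiLC, 12 of the 24 tested transporters were higher than in wild-type ESC and 8 lower, where 35.8% and 38.8% of all tested loci were called in those directions. In Sirt1KO, 11 were higher and 7 lower than in wild-type ESC, beside 32.4% and 32.7% of all loci. In Sirt1KO Otx2KD, 6 were higher and 12 lower than in Sirt1KO, beside 31.1% and 31.5%. Against wild-type ESC, Sirt1KO Otx2KD had 6 higher and 9 lower, beside 27.1% and 26.8%. The libraries of the groups compared did not overlap for 22 of the 24 members in EpiLC (76.8% of all loci), for 19 in Sirt1KO (68.5%), for 19 in Sirt1KO Otx2KD against Sirt1KO (67.2%) and for 18 in Sirt1KO Otx2KD against wild-type ESC (61.3%). So many loci changed in every comparison that being called did not set a transporter apart. The sizes of change were read beside those of all tested loci: the median absolute log2 fold change of the tested members was 0.69 in EpiLC, 0.53 in Sirt1KO and 0.39 in the Sirt1KO Otx2KD cells against Sirt1KO, beside 0.40, 0.29 and 0.26 over all loci. The signed medians were 0.06, 0.07 and -0.17, beside -0.02, 0.01 and -0.01. A member that passes the filter through its high groups has to differ. Of the 24, 18 were at 1 FPKM or more in all 12 libraries and the others in 6 or 8, as Slc1a3 was in its EpiLC and Sirt1KO libraries, so these figures describe the 24 and support nothing further. The first pair of comparisons shares the wild-type ESC libraries and the next shares the Sirt1KO libraries, so opposite or like signs between them are in part built in.

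**Figure D2:**
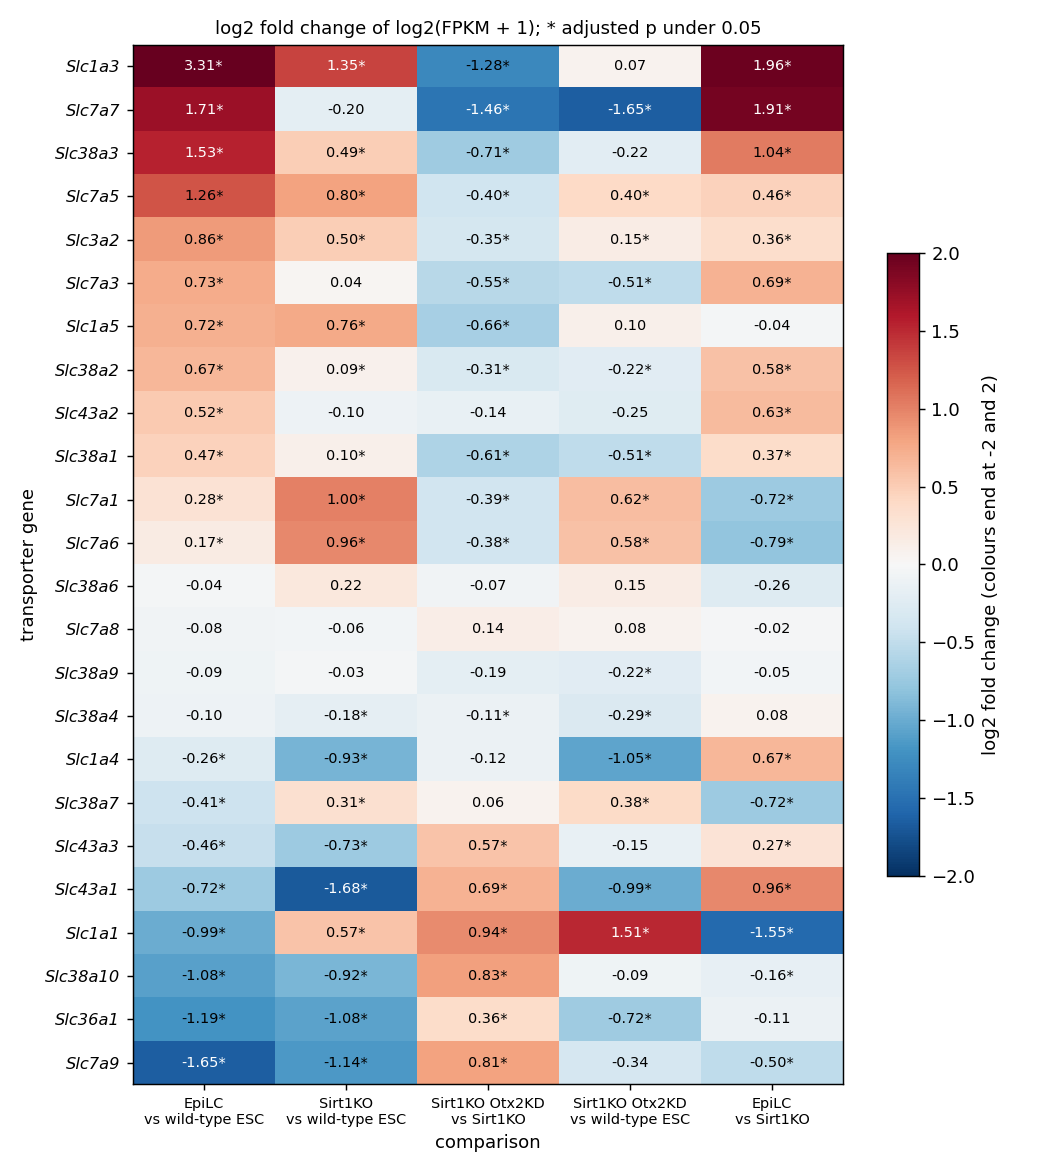
log2 fold change on log2(FPKM + 1) of the 24 tested transporters (rows, ordered by the EpiLC change) in 5 comparisons (columns), with an asterisk where the limma adjusted p is under 0.05. Red is higher and blue lower in the group named first. Slc1a3 and Slc7a7 stand at the top for EpiLC with 3.31 and 1.71, and Slc7a9 at the bottom with -1.65.

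The heavy chain Slc3a2 (chr19:8781372-8801096 in mm9) rose in EpiLC to 154, 152 and 155 FPKM, from 82.2, 84.6 and 86.6 in wild-type ESC. Its log2 fold change was 0.86 ± 0.03 (adjusted p = 3.9e-11). In Sirt1KO it measured 124, 121 and 114 FPKM, a change of 0.50 ± 0.03 (adjusted p = 1.99e-08) against wild-type ESC. Sirt1KO Otx2KD libraries, at 93.8, 94.6 and 92.6 FPKM, lay between the wild-type and the Sirt1KO libraries, and were lower than Sirt1KO by a log2 fold change of -0.35 ± 0.03 (adjusted p = 1.03e-06). All 4 groups were separate from each other. The deposited locus has the same bounds as Snhg1 with Snord22, whose mean level was 902, 739, 1284 and 1164 FPKM in wild-type ESC, EpiLC, Sirt1KO and Sirt1KO Otx2KD. Whether strand was used in counting is not given in the sources used here, so reads from overlapping parts cannot be told apart.

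Slc7a5 (LAT1, chr8:124405046-124431586), the light chain that exchanges glutamine for leucine and other large neutral amino acids, went from 47.0, 55.0 and 51.7 FPKM in wild-type ESC to 123, 129 and 118 in EpiLC, a log2 fold change of 1.26 ± 0.07 (adjusted p = 1.38e-09). In Sirt1KO it was 99.6, 84.3 and 86.0 FPKM, higher than in wild-type ESC by 0.80 ± 0.07 (adjusted p = 2.5e-07), and in Sirt1KO Otx2KD it was 66.8, 71.8 and 65.3 FPKM, lower than in Sirt1KO by a change of -0.40 ± 0.07 (adjusted p = 0.000214). None of the 4 groups overlapped another. Slc7a5 lies on chromosome 8, whose loci as a whole were higher in all groups than in wild-type ESC. As deposited, its changes in EpiLC and Sirt1KO were larger than those of Slc3a2, but with chromosome medians removed that order turned: Slc7a5 was at 0.84 and 0.34, and Slc3a2 at 0.89 and 0.54. The difference between both genes was not tested.

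Slc7a7 (y+LAT1, chr14:54980525-55036539), the light chain that exports cationic amino acids in exchange for neutral ones and sodium, split the EpiLC from the Sirt1KO cells. Its libraries measured 16.6, 17.7 and 17.5 FPKM in wild-type ESC, against 59.6, 59.9 and 57.2 in EpiLC, a 3.41-fold ratio of means with a log2 fold change of 1.71 ± 0.12 (adjusted p = 5.78e-08). Sirt1KO libraries measured 19.3, 14.1 and 12.2 FPKM, on both sides of the wild-type level, and the change of -0.20 ± 0.12 (adjusted p = 0.179) did not pass the limit. Sirt1KO replicate 1 was the highest of its group, as it was for Otx2, and without that library the change was -0.37 ± 0.08 (adjusted p = 0.000978), which passed. In Sirt1KO Otx2KD the level was 4.91, 4.28 and 5.28 FPKM, below all libraries of the other groups. Its log2 fold change was -1.46 ± 0.12 (adjusted p = 6.37e-07) against Sirt1KO and -1.65 ± 0.12 (adjusted p = 3.1e-07) against wild-type ESC. The locus shares its deposited bounds with Oxa1l, which had means of 45.0, 41.3, 41.7 and 37.5 FPKM in wild-type ESC, EpiLC, Sirt1KO and Sirt1KO Otx2KD.

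Slc7a6 (y+LAT2, chr8:108692767-108734833), a closely related exchanger, had another order. It measured 16.6, 16.8 and 15.7 FPKM in wild-type ESC, then 19.4, 17.8 and 18.3 in EpiLC, 30.5, 32.6 and 35.2 in Sirt1KO and 25.0, 23.9 and 26.2 in the Sirt1KO Otx2KD cells. Sirt1KO was thus the highest group, with a log2 fold change of 0.96 ± 0.06 (adjusted p = 4.78e-09) against wild-type ESC. The small rise in EpiLC, 0.17 ± 0.06 (adjusted p = 0.0164), was lost without wild-type replicate 3 (adjusted p = 0.065) or EpiLC replicate 1 (adjusted p = 0.0692). Slc7a6os, a separate gene with the same deposited bounds, had means of 34.4, 47.6, 59.4 and 48.1 FPKM in the same order of groups, and reads of the overlap cannot be told apart. Slc7a8 (LAT2) stayed near the limit of 1 FPKM, between 0.690 and 1.38 FPKM, with log2 fold changes from -0.076 to 0.14 over the 5 comparisons. With limma 0 of these were called, and 0 had an unadjusted p under 0.05.

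Set beside each other, the light chains changed in make-up as well as in amount. The 6 Slc7 genes known to pair with Slc3a2 (Slc7a5, Slc7a6, Slc7a7, Slc7a8, Slc7a10 and Slc7a11) summed to 86.2 ± 4.92 FPKM in wild-type ESC, then 202.6 ± 6.75 in EpiLC, 139 ± 9.81 in Sirt1KO and 99.2 ± 2.08 in the Sirt1KO Otx2KD cells (SD, n = 3). The ratio of this sum to the Slc3a2 level was 1.02 ± 0.05, 1.32 ± 0.06, 1.16 ± 0.06 and 1.06 ± 0.02 in the same order. Slc7a5 and Slc7a6 lie on chromosome 8, and with each gene divided by the shift of its chromosome, an alternative chosen after seeing the data, the ratio was 1.02 ± 0.05, 1.04 ± 0.05, 0.857 ± 0.047 and 0.854 ± 0.0065. EpiLC then overlapped wild-type ESC, and Sirt1KO and Sirt1KO Otx2KD lay below it, so the higher ratios as deposited did not hold. Slc7a7 made up 20.1% ± 0.54 of the light chain sum in wild-type ESC, then 29.1% ± 0.30 in EpiLC, 10.8% ± 1.89 in Sirt1KO and 4.87% ± 0.60 in the Sirt1KO Otx2KD cells. Slc7a6 made up 19.0% ± 1.19, 9.14% ± 0.51, 23.6% ± 3.04 and 25.2% ± 1.61. Slc7a5 remained the larger share throughout, from 59.4% ± 1.39 in wild-type ESC to 68.5% ± 2.11 in Sirt1KO Otx2KD. With the chromosome shifts divided out, the share of Slc7a7 was 20.1% ± 0.48 in wild-type ESC, 33.9% ± 0.28 in EpiLC, 14.1% ± 2.48 in Sirt1KO and 6.29% ± 0.69 in the Sirt1KO Otx2KD cells, in the same order from high to low. These shares are of RNA and are given as a description without a test.

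**Figure D3:**
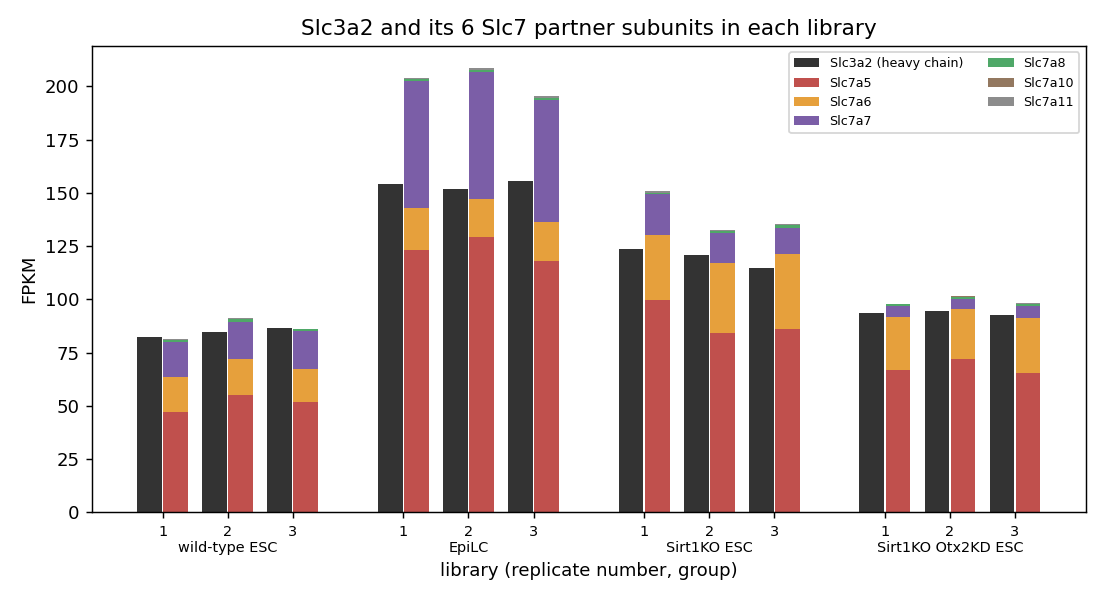
Slc3a2 (dark bars) and its 6 light chain partners stacked (coloured bars) in FPKM, for each of the 12 libraries, by group and replicate number. Values are as deposited, without removal of chromosome shifts. The light chain stack exceeds Slc3a2 most in EpiLC, with a mean ratio of 1.32 that is 1.04 once those shifts are divided out, and the Slc7a7 segment is smallest in Sirt1KO Otx2KD, at 4.87% of the stack.

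Slc7a9, the light chain known to pair with Slc3a1 in kidney and gut, was low throughout, and Slc3a1 itself was not expressed. Slc7a9 measured 2.43, 3.01 and 1.95 FPKM in wild-type ESC, then 0.123, 0.0988 and 0.0742 in EpiLC, 0.647, 0.565 and 0.455 in Sirt1KO and 1.19, 1.81 and 2.26 in the Sirt1KO Otx2KD cells. It fell in EpiLC by 1.65 and in Sirt1KO by 1.14 on the log2 scale (adjusted p = 9.62e-08 and 6.49e-06), and was higher in Sirt1KO Otx2KD than in Sirt1KO by 0.81 ± 0.14 (adjusted p = 0.000194). For genes this low the added 1 FPKM shrinks the fold change: with 0.1 added instead, the EpiLC change of Slc7a9 was -3.68.

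Cationic amino acids such as arginine and lysine enter through Slc7a1, Slc7a2 and Slc7a3. Slc7a3 (CAT3, chrX:98274487-98280842) was the higher of them in all groups, at 74.1, 76.6 and 75.9 FPKM in wild-type ESC, against 128, 128 and 123 in EpiLC. Its log2 fold change in EpiLC was 0.73 ± 0.04 (adjusted p = 1.34e-09). Sirt1KO libraries, at 83.4, 74.8 and 75.8 FPKM, overlapped wild-type ESC, and the change of 0.04 ± 0.04 (adjusted p = 0.369) did not pass the limit. Sirt1KO Otx2KD libraries, at 52.0, 54.3 and 52.6 FPKM, were lower than Sirt1KO by a change of -0.55 ± 0.04 (adjusted p = 7.78e-08) and also lower than wild-type ESC by -0.51 ± 0.04 (adjusted p = 2.71e-07). Slc7a1 (CAT1, chr5:149138986-149211480) instead measured 11.7, 12.0 and 12.8 FPKM in wild-type ESC, then 15.2, 15.2 and 14.6 in EpiLC, 23.8, 26.8 and 25.5 in Sirt1KO and 19.4, 18.1 and 20.0 in the Sirt1KO Otx2KD cells. Its rise in Sirt1KO was 1.00 ± 0.06 (adjusted p = 2.2e-09), its rise in EpiLC 0.28 ± 0.06 (adjusted p = 0.000348), and its difference between Sirt1KO Otx2KD and Sirt1KO -0.39 ± 0.06 (adjusted p = 3.72e-05). Slc7a1 accordingly made up 13.8% ± 0.49 of the cationic sum in wild-type ESC, then 10.6% ± 0.04 in EpiLC, 24.6% ± 2.14 in Sirt1KO and 26.5% ± 1.31 in the Sirt1KO Otx2KD cells (SD, n = 3).

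Slc1a1 and Slc1a3 of the Slc1 family had the widest ratios between their highest and lowest group means in FPKM among the tested members, at 56.6 and 33.5, while on log2(FPKM + 1) Slc7a7 had the widest range of group means (3.37, beside 3.31 for Slc1a3). Slc1a3 (GLAST, chr15:8584124-8660807), a sodium-coupled glutamate carrier best known from astrocytes, measured 0.469, 0.275 and 0.389 FPKM in wild-type ESC, against 12.7, 13.3 and 12.0 in EpiLC. The ratio of the means was 33.5-fold, and the log2 fold change 3.31 ± 0.11 (adjusted p = 6.26e-12). Sirt1KO libraries stood between them at 3.21, 2.38 and 2.05 FPKM, a change of 1.35 ± 0.11 (adjusted p = 1.2e-07) against wild-type ESC. In Sirt1KO Otx2KD the level was 0.357, 0.515 and 0.458 FPKM, which overlapped wild-type ESC. It was lower than in Sirt1KO by a change of -1.28 ± 0.11 (adjusted p = 2.93e-07), and the difference from wild-type ESC was 0.07 ± 0.11 (adjusted p = 0.63). With 0.1 FPKM added in place of 1, these changes were 4.76 in EpiLC, 2.46 in Sirt1KO and, for Sirt1KO Otx2KD against Sirt1KO, -2.27.

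Slc1a1 (EAAC1, chr19:28909656-28988450), another glutamate carrier that also takes up cysteine, had another order of groups. Like Slc1a3, it was higher in Sirt1KO than in wild-type ESC, but it was lowest in EpiLC. Its libraries measured 0.105, 0.0423 and 0.127 FPKM in EpiLC, 1.41, 0.915 and 1.19 in wild-type ESC, then 2.05, 2.31 and 2.26 in Sirt1KO and 5.49, 5.44 and 4.58 in the Sirt1KO Otx2KD cells, with no overlap between groups. The log2 fold change was -0.99 ± 0.10 (adjusted p = 5.7e-07) in EpiLC, which became -2.74 with 0.1 FPKM added, and 0.57 ± 0.10 (adjusted p = 0.000185) in Sirt1KO. Sirt1KO Otx2KD was higher than Sirt1KO by 0.94 ± 0.10 (adjusted p = 2.03e-06) and than wild-type ESC by 1.51 ± 0.10 (adjusted p = 3.08e-08). Slc1a1 and Slc1a3 thus differed from each other in their highest group: EpiLC for Slc1a3 and Sirt1KO Otx2KD for Slc1a1.

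Slc1a5 (ASCT2, chr7:17366695-17383623), the exchanger that brings in glutamine, was the highest member of its family. It measured 63.4, 63.7 and 67.6 FPKM in wild-type ESC, then 113, 106 and 103 in EpiLC, 115, 110.0 and 107 in Sirt1KO and 72.2, 68.4 and 68.2 in the Sirt1KO Otx2KD cells. EpiLC and Sirt1KO were both higher than wild-type ESC, by 0.72 ± 0.04 (adjusted p = 2.68e-09) and 0.76 ± 0.04 (adjusted p = 3.11e-09). The difference between EpiLC and Sirt1KO was -0.04 ± 0.04 (adjusted p = 0.409), with libraries that overlapped. Sirt1KO Otx2KD was lower than Sirt1KO by a change of -0.66 ± 0.04 (adjusted p = 1.97e-08), while its difference from wild-type ESC, 0.10 ± 0.04 (adjusted p = 0.066), missed the limit although the libraries did not overlap. It passed without wild-type replicate 3 (0.13, adjusted p = 0.0364). Slc1a4 (ASCT1, chr11:20202183-20232716), which exchanges alanine, serine and cysteine, measured 22.6, 23.3 and 23.9 FPKM in wild-type ESC, then 19.7, 18.5 and 19.5 in EpiLC, 12.7, 11.3 and 11.2 in Sirt1KO and 11.2, 10.4 and 10.5 in the Sirt1KO Otx2KD cells. It was lower than wild-type ESC in Sirt1KO, by a change of -0.93 ± 0.06 (adjusted p = 4.86e-09), and in Sirt1KO Otx2KD, by -1.05 ± 0.06 (adjusted p = 4.3e-09). The last pair did not differ past the limit (-0.12 ± 0.06 (adjusted p = 0.0736)). Slc1a4 lies on chromosome 11, where loci as a whole were lower than in wild-type ESC.

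Among the Slc38 carriers, Slc38a2 (SNAT2, chr15:96517821-96530173) measured 138, 137 and 133 FPKM in wild-type ESC, against 212, 218 and 218 in EpiLC, a log2 fold change of 0.67 ± 0.03 (adjusted p = 8.26e-11). Sirt1KO libraries measured 147, 143 and 143 FPKM. That change of 0.09 ± 0.03 (adjusted p = 0.0163) was lost without wild-type replicate 3 (adjusted p = 0.0667) or Sirt1KO replicate 1 (adjusted p = 0.0526). In Sirt1KO Otx2KD the level was 118, 114 and 116 FPKM, below every library of the other groups. The change was -0.31 ± 0.03 (adjusted p = 5.88e-07) against Sirt1KO. Slc38a1 (SNAT1), a carrier of like substrates, had the same order of group means at a lower level: 23.2 FPKM in wild-type ESC, then 32.5 in EpiLC, 25.0 in Sirt1KO and 16.0 in the Sirt1KO Otx2KD cells. Its difference in Sirt1KO, 0.10 ± 0.04 (adjusted p = 0.0375), was lost without any one of wild-type replicates 2 and 3 or Sirt1KO replicates 1, 2 and 3 (adjusted p between 0.0512 and 0.116). Slc38a4 (SNAT4), an imprinted gene in mouse, varied least among the highly expressed members, with group means between 56.3 and 69.2 FPKM. Its call in Sirt1KO Otx2KD against Sirt1KO, -0.11 ± 0.05 (adjusted p = 0.0433), was lost with 8 of the 12 libraries left out in turn (adjusted p between 0.0519 and 0.138), controls among them, and under 7 of 11 other alternatives.

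Slc38a10 (chr11:119965265-120012665), a less studied member, measured 43.9, 46.9 and 47.5 FPKM in wild-type ESC and, in Sirt1KO Otx2KD, 45.6, 43.4 and 40.6. EpiLC and Sirt1KO were lower, at 20.3, 23.0 and 20.5 and 24.0, 23.5 and 24.2 FPKM. The log2 fold change was -1.08 ± 0.06 (adjusted p = 4.74e-10) in EpiLC, -0.92 ± 0.06 (adjusted p = 5.07e-09) in Sirt1KO and 0.83 ± 0.06 (adjusted p = 2.26e-08) in the Sirt1KO Otx2KD cells against Sirt1KO. Slc38a3 (SNAT3), a glutamine carrier known from liver and brain, was low: 0.618, 0.716 and 0.696 FPKM in wild-type ESC, then 3.73, 4.57 and 3.33 in EpiLC, 2.02, 1.11 and 1.07 in Sirt1KO and 0.504, 0.460 and 0.369 in the Sirt1KO Otx2KD cells. It rose in EpiLC by 1.53 ± 0.14 (adjusted p = 1.59e-07) and in Sirt1KO by 0.49 ± 0.14 (adjusted p = 0.00573). Without Sirt1KO replicate 1 the latter was 0.32 (adjusted p = 0.0235). The lysosomal Slc38a7, on chromosome 8, fell in EpiLC from 19.8 to 14.7 FPKM (-0.41 ± 0.05 (adjusted p = 1.03e-05)). Against wild-type ESC it was higher in Sirt1KO, at 24.9 FPKM (0.31 ± 0.05 (adjusted p = 0.000163)), and in Sirt1KO Otx2KD, at 26.1 FPKM (0.38 ± 0.05 (adjusted p = 4.88e-05)). With the shift of its chromosome removed, the Sirt1KO rise turned to -0.15 and the Sirt1KO Otx2KD rise dropped to 0.015 (adjusted p = 0.862). Slc38a9, the lysosomal arginine sensor of mTORC1, and Slc38a6 ranged from 0.758 to 2.96 FPKM. Slc38a9 in Sirt1KO Otx2KD against wild-type ESC (-0.22 ± 0.08 (adjusted p = 0.032)) was the 1 call among their 10 changes. It was lost without any 1 of the wild-type libraries or without Sirt1KO Otx2KD replicate 2 or 3 (adjusted p between 0.0512 and 0.098).

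Of the tested members of Slc36 (Slc36a1 alone) and Slc43 (Slc43a1, Slc43a2 and Slc43a3), all but Slc43a2 fell in both EpiLC and Sirt1KO. Slc36a1 (PAT1, chr11:55017842-55049832), a proton-coupled carrier of the lysosome, went from 6.41, 7.31 and 6.55 FPKM in wild-type ESC to 2.39, 2.54 and 2.26 in EpiLC and 2.62, 2.77 and 2.62 in Sirt1KO, with log2 fold changes of -1.19 ± 0.09 (adjusted p = 1.98e-08) and -1.08 ± 0.09 (adjusted p = 1.03e-07). Sirt1KO Otx2KD libraries, at 3.92, 4.14 and 3.15 FPKM, were higher than Sirt1KO by 0.36 ± 0.09 (adjusted p = 0.00257) and still lower than wild-type ESC by a change of -0.72 ± 0.09 (adjusted p = 1.09e-05). Slc43a1 (LAT3, chr2:84679565-84703743), a carrier of large neutral amino acids that needs no heavy chain, was lowest in Sirt1KO. It measured 14.9, 14.5 and 12.3 FPKM in wild-type ESC, then 8.34, 7.63 and 8.11 in EpiLC, 3.96, 3.39 and 3.58 in Sirt1KO and 5.97, 6.36 and 7.19 in the Sirt1KO Otx2KD cells, with no overlap between groups. The change was -1.68 ± 0.08 (adjusted p = 8.02e-10) in Sirt1KO, -0.72 ± 0.08 (adjusted p = 2.65e-06) in EpiLC and 0.69 ± 0.08 (adjusted p = 7.83e-06) in Sirt1KO Otx2KD against Sirt1KO. Slc43a1 and Slc7a5, which carry overlapping substrates, thus went opposite ways in EpiLC and in Sirt1KO. Slc43a3, named for this family but known to carry purine nucleobases, fell from 3.64 to 2.38 FPKM in EpiLC and 1.80 in Sirt1KO (-0.46 ± 0.09 (adjusted p = 0.000417) and -0.73 ± 0.09 (adjusted p = 8.39e-06)). Slc43a2 (LAT4) rose in EpiLC, from 1.77 to 2.98 FPKM (0.52 ± 0.10 (adjusted p = 0.000322)), and its changes in Sirt1KO and Sirt1KO Otx2KD did not pass the limit.

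Loci of chromosomes 8 and 11 moved as whole chromosomes between the groups, which touches 7 tested members. Over 680 tested loci of chromosome 8 the median log2 fold change against wild-type ESC was 0.40 in EpiLC, 0.46 in Sirt1KO and 0.36 in the Sirt1KO Otx2KD cells. Over 1039 loci of chromosome 11 it was -0.46, -0.49 and -0.39. With each chromosome's median subtracted per library, Slc7a5 (chromosome 8) kept a rise of 0.84 in EpiLC and 0.34 in Sirt1KO, and its difference in Sirt1KO Otx2KD against wild-type ESC dropped to 0.04 (adjusted p = 0.694). Slc7a6 kept 0.50 in Sirt1KO, while its EpiLC change turned to -0.24 (adjusted p = 0.00354). Slc38a7 was at -0.82 in EpiLC, -0.15 in Sirt1KO (adjusted p = 0.0573) and 0.015 in Sirt1KO Otx2KD (adjusted p = 0.862). On chromosome 11, Slc1a4 turned to 0.21 in EpiLC (adjusted p = 0.00422) and kept -0.45 in Sirt1KO and -0.66 in the Sirt1KO Otx2KD cells. Slc36a1 kept -0.72, -0.59 and -0.32 in EpiLC, Sirt1KO and Sirt1KO Otx2KD, and Slc38a10 kept -0.61 and -0.43 in EpiLC and Sirt1KO. In Sirt1KO Otx2KD, Slc38a10 turned to 0.30 (adjusted p = 0.00113). Slc43a2 was at 1.00 in EpiLC and turned to 0.38 in Sirt1KO (adjusted p = 0.00302). EpiLC, Sirt1KO and Sirt1KO Otx2KD shared these shifts. The comparisons of Sirt1KO Otx2KD with Sirt1KO and of EpiLC with Sirt1KO are therefore less touched by them. There the medians of both chromosomes were between -0.10 and 0.07. Chromosome X, which holds Slc7a3, had medians of -0.14 and 0.11 in these comparisons, in that order. For chromosome 13, which holds Slc38a9, they were -0.12 and -0.0035.

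**Figure D4:**
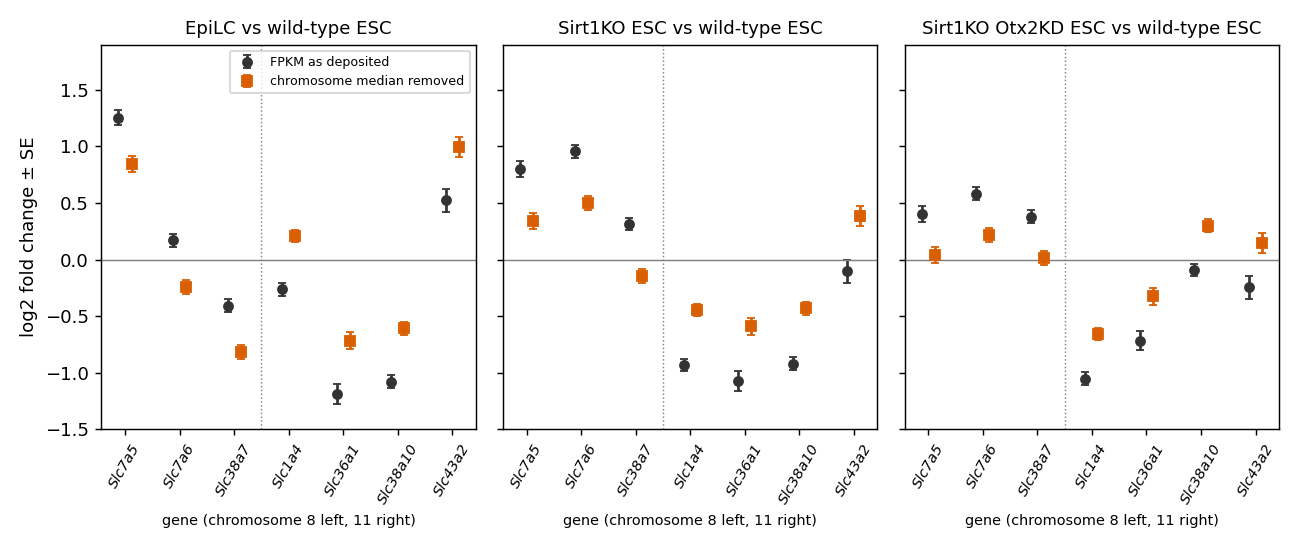
log2 fold change ± SE against wild-type ESC of the 7 tested transporters on chromosome 8 (left of the dotted line) and chromosome 11 (right), as deposited (dark circles) and with the chromosome median subtracted (orange squares), in 3 panels for EpiLC, Sirt1KO and Sirt1KO Otx2KD. Slc7a5 stays above 0 in EpiLC and Sirt1KO, whereas Slc1a4 crosses from -0.26 to 0.21 in EpiLC.

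EpiLC and Sirt1KO share the wild-type ESC as control, so their difference was tested directly. Of the 24 tested members, 12 were higher and 6 lower in EpiLC than in Sirt1KO, beside 34.0% and 35.1% of all loci, and libraries did not overlap for 21 (72.4% of all loci). Slc1a3 and Slc7a7 were higher in EpiLC by 1.96 ± 0.11 (adjusted p = 2.42e-09) and 1.91 ± 0.12 (adjusted p = 3.57e-08), and Slc38a3, Slc43a1 and Slc7a3 by 1.04, 0.96 and 0.69. Slc38a2 and Slc3a2 were higher in EpiLC by 0.58 and 0.36 (adjusted p = 7.02e-10 and 5.18e-07). Slc1a1, Slc7a6, Slc7a1 and Slc38a7 were higher in Sirt1KO, with log2 fold changes of EpiLC over Sirt1KO of -1.55, -0.79, -0.72 and -0.72. The 6 members that did not pass were Slc1a5, Slc36a1, Slc38a4, Slc38a6, Slc38a9 and Slc7a8, which does not show that they were alike. The cationic carriers Slc7a1 and Slc7a3 and the exchangers Slc7a6 and Slc7a7 thus each split: Slc7a3 and Slc7a7 were higher in EpiLC, and Slc7a1 and Slc7a6 in Sirt1KO.

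Genes that sense or respond to amino acids were read beside the transporters, and their counts stand beside the shares of all loci called higher and lower: 35.8% and 38.8% in EpiLC, 32.4% and 32.7% in Sirt1KO, and 31.1% and 31.5% for Sirt1KO Otx2KD against Sirt1KO. Of 22 genes of the response led by the kinase Gcn2 (Eif2ak4) and Atf4, 15 were higher and 4 lower in EpiLC, 12 higher and 4 lower in Sirt1KO, and 5 higher and 15 lower in the Sirt1KO Otx2KD cells against Sirt1KO. The median log2 fold changes were 0.27, 0.37 and -0.42, beside -0.02, 0.01 and -0.01 over all loci. Atf4 itself measured 248, 248 and 258 FPKM in wild-type ESC, then 311, 295 and 302 in EpiLC, 338, 340.4 and 323 in Sirt1KO and 247, 246 and 249 in the Sirt1KO Otx2KD cells. The serine synthesis enzyme Psat1 went from 213 to 337 FPKM (log2 fold change 0.66) in EpiLC and from 213 to 289 FPKM (log2 fold change 0.44) in Sirt1KO. Mthfd2, of mitochondrial one-carbon metabolism, went from 70.5 to 145 FPKM (log2 fold change 1.03) in EpiLC, and asparagine synthetase (Asns), also of the list, fell from 429 to 232 FPKM (log2 fold change -0.89). Members of the list therefore did not all go one way.

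The same shares of all loci, 31.1% to 38.8% in each direction, stand behind the counts of the other lists. Of 30 measured genes of 33 in amino acid sensing by mTORC1, 14 were higher and 10 lower in EpiLC, 13 and 15 in Sirt1KO, and 9 and 14 in the Sirt1KO Otx2KD cells against Sirt1KO. The small GTPase gene Rragd, whose protein recruits mTORC1 to the lysosome, went from 12.0 to 26.7 FPKM (log2 fold change 1.09) in EpiLC and from 12.0 to 20.3 FPKM (log2 fold change 0.71) in Sirt1KO, and from there to 11.6 FPKM in Sirt1KO Otx2KD. Its partner gene Rragb went from 16.3 to 41.0 FPKM (log2 fold change 1.28) in EpiLC. The largest rise named there was that of Deptor, from 3.99 to 15.1 FPKM (log2 fold change 1.69). Other genes of the list fell in Sirt1KO: Gatsl3 from 52.9 to 17.1 FPKM (log2 fold change -1.57) and Mtor from 12.0 to 7.22 FPKM (log2 fold change -0.65). The list thus did not go one way. Of 26 genes of glutamine, threonine, arginine and glutathione use, 22 were tested: 9 were higher and 8 lower in EpiLC, 11 and 8 in Sirt1KO, and 4 and 10 in the Sirt1KO Otx2KD cells against Sirt1KO. Threonine dehydrogenase (Tdh), on which mouse ESC are known to depend, fell in EpiLC from 384 to 142 FPKM (log2 fold change -1.43). Of the other plasma membrane amino acid transporters, 6 of 12 were tested: 2 higher and 3 lower in EpiLC, 4 and 1 in Sirt1KO, and 1 and 4 in the Sirt1KO Otx2KD cells against Sirt1KO. The creatine carrier Slc6a8, counted with them by family, rose in Sirt1KO from 16.5 to 29.8 FPKM (log2 fold change 0.82). Of 9 mitochondrial amino acid carriers, 6 were tested, with 1 higher and 5 lower in EpiLC, 1 and 3 in Sirt1KO, and 2 and 1 in the Sirt1KO Otx2KD cells against Sirt1KO. The ornithine carrier Slc25a15 was the 1 that rose in EpiLC, from 15.0 to 28.0 FPKM (log2 fold change 0.86), and the aspartate-glutamate carrier Slc25a12 fell from 18.5 to 8.35 FPKM (log2 fold change -1.07). Whether these genes and the transporters respond to each other was not tested. The shifts of chromosomes 8 and 11 against wild-type ESC were not removed from the values or counts of any of the lists.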

How the data were processed

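RNA of 12 mouse libraries was measured, in 4 groups of 3 taken from the sample titles. The submitters' processing notes name the build mm9 and the tools TopHat, Cufflinks and Cuffdiff. Versions, and how libraries were scaled, are not given in the sources used here. The authors deposited FPKM for each locus. The joined files held 27914 loci, of which the 4778 without a gene name were left out of the tests. Coordinates are those of the deposited loci in mm9, written from 1, and a locus can hold overlapping genes.

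Read totals are not given. Relative depth was estimated from the smallest steps of low FPKM values and ran from 0.767 to 1.33 of that of replicate 1 of wild-type ESC. Per library, 15775 to 16408 loci were above 0, and no files were identical. No interval for counting error can be given.

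Values were log2(FPKM + 1), fitted with a mean per group over all 12 libraries in limma 3.58.1 under R 4.3.3. Empirical Bayes used its trend and robust options and had 8 residual degrees of freedom. A named locus was tested if 3 or more libraries reached 1 FPKM (12320 loci), with Benjamini-Hochberg adjustment over all of them and a limit of 0.05. Fold changes on this scale understate the change of low genes. The fit was tested on simulated data. Full values are given for members with a mean of at least 5 FPKM in a group and a log2 fold change of at least 1 in a comparison, and for the highest of each family. Slc7a6, Slc7a9, Slc38a3 and Slc7a11 fall outside this rule and were chosen for full values after these were seen, and other members are summarised. From the 5 pathway lists, up to 4 called genes per comparison could be named, beside 7 marker lists. The members, lists and tests were chosen with earlier results of these data known. Alternatives changed the pseudocount, filter, scaling, chromosome medians, unnamed loci, samples fitted, replicate term and empirical Bayes settings, and left out each library in turn.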

Additional observations from a re-analysis of the deposited data

How the results depend on the processing

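The counts of transporters called higher or lower stayed within 1.5 times under all alternatives but the filter at 5 FPKM, which tests fewer members by construction. There 5 were lower in EpiLC than in wild-type ESC and 3 higher in Sirt1KO Otx2KD than in Sirt1KO. With the replicate number as a block, 12 were higher and 8 lower in EpiLC, 11 and 7 in Sirt1KO, 6 and 11 in Sirt1KO Otx2KD against Sirt1KO, 6 and 9 against wild-type ESC, and 12 and 7 in EpiLC against Sirt1KO. Same-numbered libraries correlated between -0.107 and 0.17, with 2 of 18 pairs above 0.1. These were pairs of wild-type ESC with EpiLC, at 0.17 for replicate 2 and 0.104 for replicate 3. Differently numbered libraries of different groups correlated between -0.184 and 0.201, a range that holds that of the same-numbered ones. With 3 libraries in a group, such correlations cannot settle whether same-numbered libraries were paired. Of 120 changes, the block ended the calls of Slc38a4 in Sirt1KO Otx2KD against Sirt1KO (adjusted p = 0.0669) and of Slc38a9 in Sirt1KO Otx2KD against wild-type ESC (0.0513). It added Slc43a2 in the latter comparison (0.0487) and Slc38a6 in EpiLC against Sirt1KO (0.0353).

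With chromosome medians removed, direction turned for Slc1a4 (0.21) and Slc7a6 (-0.24) in EpiLC, Slc38a7 (-0.15) and Slc43a2 (0.38) in Sirt1KO, Slc38a10 (0.30) and Slc43a2 (0.14) in Sirt1KO Otx2KD against wild-type ESC, and Slc1a5 (0.015) in EpiLC against Sirt1KO. Quantile normalization turned Slc1a5 in EpiLC against Sirt1KO (0.083) and Slc38a9 in Sirt1KO (0.017). With a library left out, 7 changes that were not called spanned 0: Slc38a6 in EpiLC (-0.1135 to 0.0401), then in Sirt1KO Slc38a9 (-0.068 to 0.0177), Slc43a2 (-0.2102 to 0.0021), Slc7a3 (-0.0044 to 0.0731) and Slc7a8 (-0.1495 to 0.0489), Slc38a6 in Sirt1KO Otx2KD against Sirt1KO (-0.1948 to 0.0209), and Slc7a8 in EpiLC against Sirt1KO (-0.1254 to 0.0731). The cause of these was not tested. Of 1440 changes of single members with a library left out, 1390 kept direction and call, 27 lost and 15 gained the call. Many of these left out a library of a group outside the comparison. That alters only the spread and cannot turn the direction, so the number kept overstates how stable the changes are. No read counts are given, so what depth limits for the low members cannot be stated.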
